A study of Rattus norvegicus with 60 samples.

Results

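The first hours after a contusion of the rat spinal cord were followed on 8 of the 60 arrays of the series. All 8 came from injured rats of the group given only the ethanol vehicle (SCI-EtOH). They were chosen by group and time as the sample labels give them: 2 arrays at 0 h and 6 arrays at 2, 4 and 6 h. Each time had 2 rats, with 1 array per rat. The rats were female Long Evans of 8 to 9 weeks under Zoletil 50 and Rompun anaesthesia. Their thoracic cord was exposed by laminectomy and struck with a weight by the New York University Impactor, 70% ethanol was then infused into a vein, and 5 mm of cord holding the lesion was taken. No array of an unoperated rat was used, and the injured rats at 0 h had themselves been anaesthetized, opened and struck. The paper says that the 0 h animals were killed at once. It counts the later times from medication where it describes the animals, and from injury where it describes the statistics. Whether the 0 h rats had received the whole infusion is not stated. The sham group that received vehicle (S-EtOH), 8 arrays over those times, had the surgery without the impact and are given beside the injured values. The comparison of 2 to 6 h with 0 h asks which transcripts rose or fell in the lesion while the injury was fresh.

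A contusion crushes neurons and glia and tears small vessels. Damaged cells release nucleotides, potassium and proteins that resident microglia, astrocytes and endothelium sense within minutes. Immediate early genes, which need no new protein to be switched on, are transcribed first, and many of them encode transcription factors of the AP-1, EGR and NR4A families. NF-kappaB is held inactive in the cytoplasm by IkappaB proteins until a signal destroys these, and it then drives chemokines, cytokines and its own inhibitors. Neutrophils and monocytes follow such chemokines into the cord over the next hours and days, while neurons and axons in the lesion are lost.

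The Rat Gene 1.0 ST array measures each transcript with a probe set, and the deposited log2 values are centred for each probe set. A value is therefore relative to its own probe set and is no level, so levels of different genes cannot be set against each other and the presence of cord markers as such cannot be read. A difference of 1 between 2 arrays on this scale is a 2-fold difference. After averaging the probe sets of a gene, 14324 genes were tested with limma, and a gene passed the threshold at a Benjamini-Hochberg adjusted p under 0.05 over all of them. The 2 injured arrays of a time correlated over genes at 0.782 for 0 h, 0.667 for 2 h, 0.684 for 4 h and 0.189 for 6 h, where replicate 1 stood apart with an SD over genes of 0.479 against 0.241 to 0.329 on the other 7 arrays. Each mean at a time rests on 2 rats, and the number of rats limits the precision of every value below.

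Of the 14324 genes, 269 were higher (1.88%) and 817 lower (5.7%) at 2 to 6 h than at 0 h. These shares stand beside every list count of early rises and falls below. The rises were fewer and larger than the falls. Their median log2 change was 1.06, and 148 of the 269 exceeded 1, whereas the median fall was −0.61 and 31 of the 817 went below −1. The largest rise was 4.10 and the largest fall −1.37. The median change of all genes was −0.053. In 259 of the rises all 6 early arrays lay above both 0 h arrays, and in 811 of the falls all 6 lay below, against 1351 (9.43%) and 3366 (23.5%) of all genes tested. The calls rest on the same arrays, so this separation is no separate support for them. By time, 69 genes were higher (0.482%) and 7 lower (0.0489%) at 2 h, 314 higher (2.19%) and 765 lower (5.34%) at 4 h, and 190 higher (1.33%) and 379 lower (2.65%) at 6 h. In either direction these were 0.531% of genes at 2 h, 7.53% at 4 h and 3.97% at 6 h. Among the 269 rises the change was greatest at 4 h in 197, at 6 h in 60 and at 2 h in 12. The counts depended on single arrays: without 0 h replicate 1 the fit called 80 genes higher and 14 lower, without 0 h replicate 2 it called 77 and 6, and without 6 h replicate 2 it called 854 and 2651. The changes had the same sign in these fits for all named genes that had passed.

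The 12 largest rises were those of secreted inflammatory proteins and stress-response genes. They were taken from the rises whose 6 early arrays all lay above both 0 h arrays, so this separation was set by the choice. Tfpi2, a secreted inhibitor of serine proteases, led them. Its values were −1.94 and −2.07 at 0 h, 1.80 and 1.23 at 2 h, 3.04 and 2.73 at 4 h and 1.29 and 2.45 at 6 h. All 6 early arrays lay far above the baseline pair. The mean change was 4.10 (SE 0.33, adjusted p = 2.2e-05), a 17.1-fold difference. Ccl2, which draws monocytes, stood at −2.72 and −2.55 at 0 h, 0.89 and 0.40 at 2 h, 2.00 and 1.65 at 4 h and 0.22 and 1.56 at 6 h. It rose by 3.76 (SE 0.26, adjusted p = 8.5e-06). Lif, a cytokine of the IL-6 family made by glia after injury, rose by 3.71 (SE 0.25, adjusted p = 5.7e-06), from a mean of −2.20 at 0 h to values between 0.53 and 2.55, with no overlap. Emp1, a membrane protein that is also found in reactive astrocytes, rose by 2.96 (SE 0.20, adjusted p = 5.7e-06). The others of the 12 were Cxcl2, Ccl3, Atf3, Ptgs2, Cxcl1, Ccl4, Dusp5 and Il6, which are described with their families below.

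**Figure D1:**
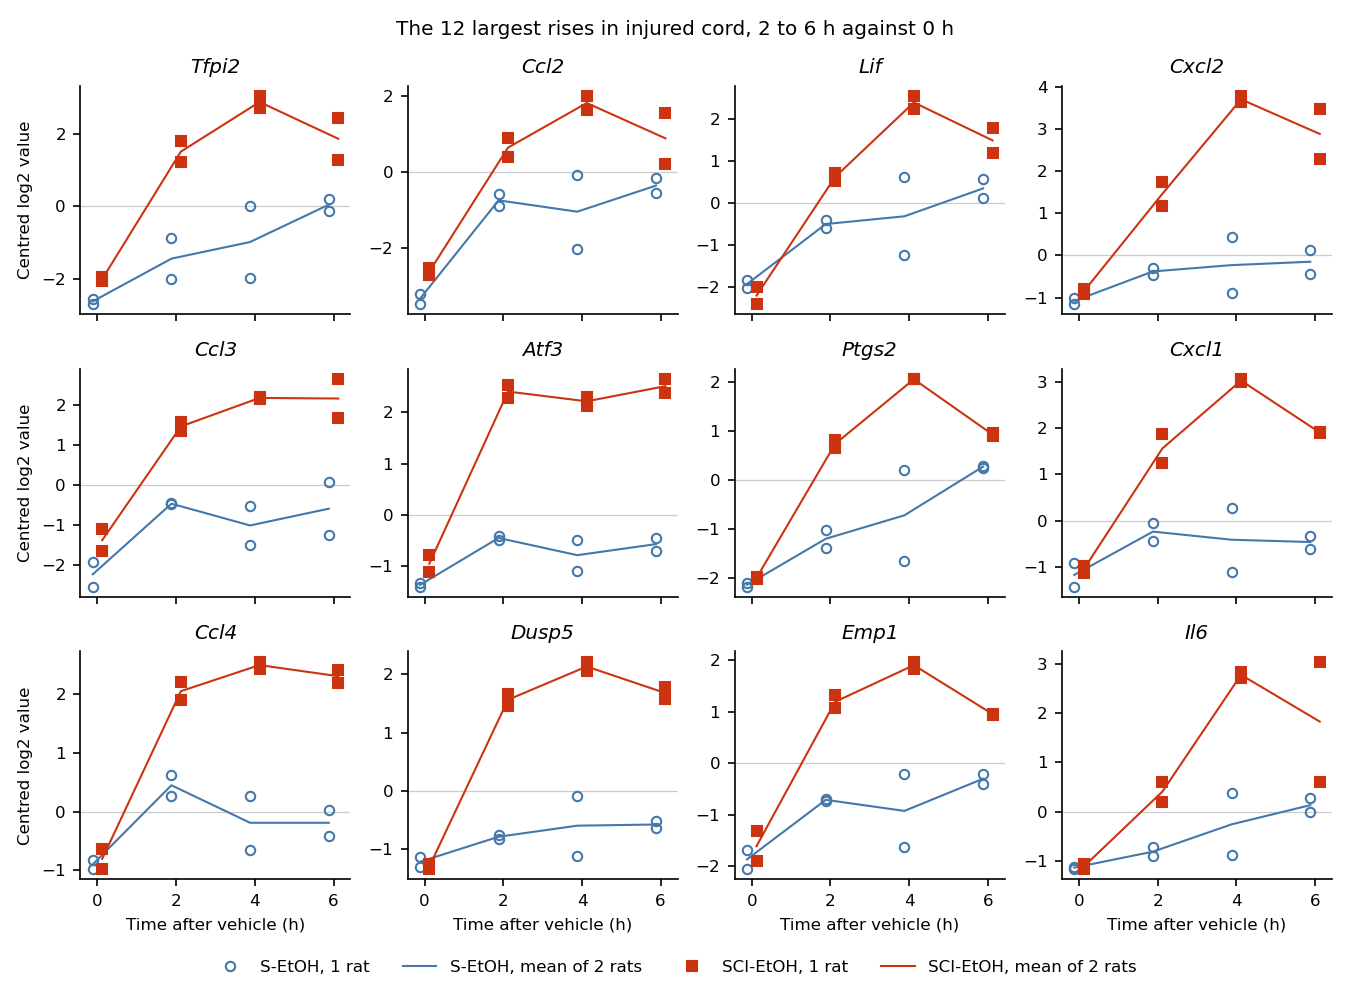
The 12 largest rises, ordered by size: centred log2 values (y axis, own scale in each panel) against hours after the vehicle (x axis), with 1 point per rat and lines through the means of 2 rats, for SCI-EtOH (filled squares) and S-EtOH (open circles). The genes were chosen to have all 6 injured arrays at 2 to 6 h above both injured 0 h arrays. Atf3 is already near its highest value at 2 h, and Il6 is at 0.61 and 0.20 then.

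To show the sequence from which some of these genes are transcribed, the 150 bases just before the start site are printed for 4 of the 12, from RefSeq on build GRCr8. The 4 genes and the motifs marked in each were picked by hand, so they do not stand for the 12. The capitals mark matches to 3 short motifs on either strand: the kappaB motif bound by NF-kappaB in Cxcl2 and Cxcl1, kappaB and the AP-1 motif TGANTCA in Tfpi2, and the CArG motif bound by serum response factor in Dusp5. The windows lie at chr14:17467256-17467405 on the minus strand for Cxcl2, chr14:17479322-17479471 on the minus strand for Cxcl1, chr4:32941277-32941426 on the minus strand for Tfpi2 and chr1:262543624-262543773 on the plus strand for Dusp5.
Cxcl2: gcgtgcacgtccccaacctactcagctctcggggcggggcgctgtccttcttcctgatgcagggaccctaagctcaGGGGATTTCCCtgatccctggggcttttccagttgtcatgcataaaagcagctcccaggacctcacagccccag
Cxcl1: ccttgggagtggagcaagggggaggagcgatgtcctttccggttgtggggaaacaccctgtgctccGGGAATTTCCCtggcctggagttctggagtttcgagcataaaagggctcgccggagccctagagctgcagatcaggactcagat
Tfpi2: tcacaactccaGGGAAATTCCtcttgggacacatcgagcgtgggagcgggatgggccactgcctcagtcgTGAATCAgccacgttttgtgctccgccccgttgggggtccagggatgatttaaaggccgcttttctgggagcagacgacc
Dusp5: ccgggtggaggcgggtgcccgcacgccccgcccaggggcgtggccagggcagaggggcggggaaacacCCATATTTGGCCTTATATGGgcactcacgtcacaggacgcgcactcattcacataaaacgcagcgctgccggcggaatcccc
In Cxcl2 a pair of overlapping kappaB matches began 74 and 73 bases before the start, and in Cxcl1 84 and 83 bases before it. Tfpi2 held the AP-1 motif 80 bases and kappaB 139 bases before the start, and Dusp5 held CArG motifs 82 and 72 bases before it. Promoters of 250 bases before to 50 after the start were matched by symbol for 209 of the 269 rises, 670 of the 817 falls and 11823 of the genes tested. The kappaB motif was present in 20.6% of those of the rises, 9.7% of those of the falls and 8.86% of those of all genes tested (7.6% of all 27457 promoters in the table). TGANTCA was present in 15.8%, 4.93% and 6.24% (7.33% of all promoters), the cyclic AMP response element TGACGTCA in 5.26%, 3.73% and 2.44% (1.91%), and CArG in 3.83%, 1.19% and 1.28% (1.64%). The heat shock element was present in 0.478%, 0.448% and 0.541% (0.736%). These shares describe letters in a window and were not tested, and no match says only that the letters are not in that window.

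Of the AP-1 and early growth response factors, transcription factors and related products of immediate early genes, 17 of 18 measured members rose and 0 fell (1.88% and 5.7% of all genes), with a list median of 1.48. Atf3, a stress-induced partner of Jun, changed most. Its values were −0.78 and −1.11 at 0 h, 2.53 and 2.28 at 2 h, 2.13 and 2.30 at 4 h and 2.65 and 2.37 at 6 h. The 6 early values lay close together and far above both baseline arrays. The change was 3.32 (SE 0.15, adjusted p = 1.8e-07), or 9.97-fold. Fosl1, another Fos family member, rose by 2.03 (SE 0.20, adjusted p = 9.7e-05), and Fos itself went from 0.12 and −0.18 at 0 h to between 1.55 and 2.00, a change of 1.81 (SE 0.24, adjusted p = 0.0011). Egr1, a zinc finger factor induced by growth factor signals, was at 0.04 and 0.01 at 0 h, 2.24 and 2.08 at 2 h, 2.05 and 2.12 at 4 h and 1.60 and 1.86 at 6 h, and rose by 1.96 (SE 0.22, adjusted p = 0.00034). Ier3, Klf4, Junb, Ier5, Myc, Ier2, Jun, Maff, Egr2, Jund, Klf6, Egr3 and Srf rose by 0.87 to 2.11. Egr4 did not pass (0.55, adjusted p = 0.14). At 2 h 12 members were already past the threshold, and 16 at 4 h and 16 at 6 h. Leaving out 1 array at a time left between 10 (without 0 h replicate 2) and 18 (without 6 h replicate 2) past it.

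All 3 NR4A nuclear receptors, orphan receptors that are themselves immediate early genes, rose. Nr4a1 was at 0.01 and 0.18 at 0 h, 2.66 and 2.36 at 2 h, 2.01 and 1.89 at 4 h and 0.80 and 0.96 at 6 h. Nr4a2 was at −0.17 and 0.09, then at 2.43 and 1.70, 1.51 and 1.19, and 0.22 and 0.45. Nr4a3 was at −0.16 and −0.05, then at 1.65 and 1.26, 1.37 and 1.63, and 0.74 and 0.69. For each receptor both 6 h arrays lay below all 4 arrays of 2 and 4 h. The mean early changes were 1.68 (SE 0.25, adjusted p = 0.0025) for Nr4a1, 1.29 (SE 0.29, adjusted p = 0.021) for Nr4a2 and 1.33 (SE 0.12, adjusted p = 4.3e-05) for Nr4a3. The difference of 6 h from 2 h was −1.63 for Nr4a1, −1.73 for Nr4a2 and −0.74 for Nr4a3, and none of the 3 passed (adjusted p = 0.23, 0.25 and 0.23). Without either 0 h array, 1 of the 3 early rises passed.

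The MAP kinase phosphatases and Sprouty inhibitors, which switch off the kinases that act on these factors, were less uniform, with 4 of 14 higher and 0 lower. Dusp5, a nuclear phosphatase of ERK, stood out. It was at −1.25 and −1.34 at 0 h, 1.67 and 1.46 at 2 h, 2.22 and 2.05 at 4 h and 1.79 and 1.57 at 6 h, with a change of 3.08 (SE 0.25, adjusted p = 2.2e-05). Dusp1 rose by 1.47 (SE 0.25, adjusted p = 0.0057), Spry1 by 0.81 and Dusp14 by 0.62. Dusp6, the cytoplasmic ERK phosphatase, was at 0.28 and −0.16 at 2 h, 1.22 and 0.85 at 4 h and −0.02 and 0.87 at 6 h, overlapped its baseline of 0.02 and −0.13, and did not pass (0.57, adjusted p = 0.17). Without either 0 h array 1 gene of this list passed.

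Of the NF-kappaB subunits and feedback inhibitors 8 of 13 rose and 0 fell. Many genes were put in this list as inhibitors or subunits that NF-kappaB is known to induce, and NF-kappaB activity was not tested. Nfkbia, which encodes IkappaB alpha, was at −1.20 and −1.40 at 0 h and between 0.65 and 1.08 on the early arrays, a change of 2.12 (SE 0.23, adjusted p = 0.00022). Nfkbiz rose by 1.62, the RNase gene Zc3h12a by 1.53, the anti-apoptotic Birc3 by 1.29, Nfkb2 by 0.99, Nfkb1 by 0.97, Nfkbie by 0.62 and Bcl3 by 0.58. Rela, the main activating subunit, had a change of 0.56 and did not pass (adjusted p = 0.074). Without 0 h replicate 2, 2 genes of this list were higher.

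Chemokines split into a few members with very large rises and many without a detectable change. Of the neutrophil-attracting CXC chemokines 2 of 7 rose. Cxcl2 was at −0.92 and −0.79 at 0 h, 1.17 and 1.75 at 2 h, 3.63 and 3.77 at 4 h and 2.28 and 3.48 at 6 h. It rose by 3.54 (SE 0.44, adjusted p = 0.0007), with a change at 2 h of 2.32 that did not pass on its own (adjusted p = 0.11). Cxcl1 was at −0.97 and −1.13 at 0 h, 1.25 and 1.87 at 2 h, 2.99 and 3.06 at 4 h and 1.91 and 1.90 at 6 h, and rose by 3.21 (SE 0.24, adjusted p = 1.3e-05). Both genes were highest at 4 h on average. Their receptor Cxcr2, carried by neutrophils, did not pass (0.85, adjusted p = 0.21), and neither did Cxcl3 (0.28) or Cxcl6 (0.59). These 2 calls were kept whichever single array was left out.

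Of the CC chemokines and receptors 4 of 15 rose: Ccl2, Ccl3, Ccl4 and Ccl7. Ccl3, a chemokine that draws leukocytes, was at −1.66 and −1.10 at 0 h, 1.59 and 1.35 at 2 h, 2.21 and 2.16 at 4 h and 1.68 and 2.66 at 6 h. It rose by 3.32 (SE 0.43, adjusted p = 0.00091). Ccl4 rose by 3.09 (SE 0.21, adjusted p = 5.7e-06) and held between 1.90 and 2.56 on all 6 early arrays. Ccl7, like Ccl2 a ligand of CCR2, rose by 1.76 (SE 0.26, adjusted p = 0.0024). Ccl5 (−0.05), Ccl20 (0.20) and Ccl22 (0.19) did not pass. Of 9 CXCR3-binding and other CXC chemokines, Cxcl11 (2.20) and Cxcl16 (1.10) rose. Cxcl10, a ligand of CXCR3, had a change of 1.61 that did not pass (adjusted p = 0.073). Of these 9 genes 1 was higher without either 0 h array.

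In the interleukin-1 system 5 of 13 rose and 0 fell (1.88% and 5.7% of all genes). The list median was 0.18, against 0.21 in sham cord. Il1a, a cytokine released by damaged cells, was at −0.14 and −0.31 at 0 h, 2.41 and 1.84 at 2 h, 2.31 and 2.25 at 4 h and 0.55 and 2.28 at 6 h, with replicate 1 of 6 h well below the others. It rose by 2.16 (SE 0.36, adjusted p = 0.0051). Il1b was at −0.25 and −0.26 at 0 h and between 1.15 and 2.03 afterwards, a rise of 1.84 (SE 0.31, adjusted p = 0.0052). The receptor antagonist Il1rn lagged, at −0.04 and −0.44 at 2 h against 1.64 and 0.58 at 4 h and 1.19 and 1.22 at 6 h, and rose by 1.27 (SE 0.26, adjusted p = 0.015). The receptor Il1r1 (0.69) and the adaptor Myd88 (0.81) rose as well. Casp1, which cuts the IL-1 beta precursor, and Il18 did not pass (−0.11 and 0.01). None of these 5 calls held when either 0 h array was left out.

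Of the IL-6 family and its gp130 signalling genes 7 of 15 rose and 1 fell. Il6 was at −1.07 and −1.17 at 0 h, 0.61 and 0.20 at 2 h, 2.72 and 2.84 at 4 h and 0.61 and 3.05 at 6 h, so that the 2 rats at 6 h differed widely. Its mean change was 2.79 (SE 0.55, adjusted p = 0.012), and it was 1.52 at 2 h, which did not pass (adjusted p = 0.44), and 3.90 at 4 h, which did (adjusted p = 0.0053). Il11 was at −0.59 and −0.63 at 0 h, −0.19 and −0.20 at 2 h, 1.89 and 1.36 at 4 h and 1.13 and 0.84 at 6 h, a mean rise of 1.41 (SE 0.27, adjusted p = 0.011). The receptor Osmr rose by 2.18 and the feedback inhibitor Socs3, induced by STAT3, by 2.40 (SE 0.24, adjusted p = 0.00013). The receptor Lifr fell by 0.55 (SE 0.15, adjusted p = 0.044). The shared receptor chain Il6st did not pass (−0.22, adjusted p = 0.49). Without either 0 h array 4 genes of this list were higher and 0 lower.

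Tnf was among the genes with their highest values at 2 h. It was at −0.87 and −0.57 at 0 h, 1.74 and 1.74 at 2 h, 1.08 and 0.92 at 4 h and 0.36 and 0.88 at 6 h, a mean rise of 1.84 (SE 0.15, adjusted p = 2.8e-05). The difference of 6 h from 2 h was −1.12 and did not pass (adjusted p = 0.23). Of the 13 TNF family ligands, receptors and related genes, the receptors Tnfrsf12a (1.57) and Tnfrsf1b (1.51) and the lipopolysaccharide co-receptor Cd14 (1.18) also rose, and 0 fell. Of the leukocyte adhesion and endothelial activation genes 3 of 10 rose: Icam1, an integrin ligand on endothelium, by 1.66 (SE 0.15, adjusted p = 6.9e-05), Cd44 by 0.98 and Selp by 0.82. Of 8 toll-like receptors and adaptors 0 rose and 1 fell, Tlr3 by 0.68 (1.88% and 5.7% of all genes). Without 0 h replicate 2 the calls left were 2 in the TNF list, 1 in the adhesion list and 0 among toll-like receptors.

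Transcripts of 2 inducible enzymes of prostaglandin synthesis rose. Ptgs2, the inducible cyclooxygenase, was at −1.98 and −2.01 at 0 h, 0.66 and 0.83 at 2 h, 2.06 and 2.07 at 4 h and 0.90 and 0.97 at 6 h, with very close pairs. It rose by 3.25 (SE 0.15, adjusted p = 1.8e-07). Ptges, which makes prostaglandin E2 from its product, rose by 2.11 (SE 0.17, adjusted p = 2.2e-05). The constitutive Ptgs1 (−0.02) and Ptgds (0.05) did not pass. In the same list of 13, Arg1 (1.31) and Odc1 (0.84) of arginine and polyamine metabolism rose and the neuronal nitric oxide synthase Nos1 fell by 0.46, while the inducible Nos2 had a change of 1.47 that did not pass (adjusted p = 0.052). Without 0 h replicate 2, 2 genes of this list were higher.

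Of the proteases, inhibitors and plasminogen system genes 10 of 22 rose and 1 fell, with a median of 0.77. Besides Tfpi2 they were the plasminogen activators Plau (1.84) and Plat (1.58), the urokinase receptor Plaur (2.76), Timp1 (2.68), the aggrecanases and related Adamts1 (1.98), Adamts9 (1.20) and Adamts4 (0.76), tissue factor F3 (0.89) and thrombomodulin Thbd (0.79). Plaur was at −1.36 and −1.82 at 0 h, 0.86 and 0.56 at 2 h, 1.90 and 1.25 at 4 h and 1.79 and 0.67 at 6 h. Timp1, an inhibitor of matrix metalloproteinases, was at −2.56 and −2.77 at 0 h, −0.42 and −0.87 at 2 h, 0.58 and 0.75 at 4 h and 0.44 and −0.35 at 6 h (SE 0.23, adjusted p = 3e-05). Timp2 fell by 0.51. The matrix metalloproteinases themselves did not pass, with Mmp3 at 1.06 (adjusted p = 0.058), Mmp13 at 1.26 (adjusted p = 0.065) and Mmp9, a neutrophil granule protease, at 0.49 (adjusted p = 0.36). In this list 6 genes were higher without either 0 h array.

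Growth and cell cycle genes moved in part. Of the growth arrest and BCL2 family genes 6 of 15 rose and 0 fell, led by Gadd45b (2.11, SE 0.21, adjusted p = 0.00016), Gadd45g (1.85), Gadd45a (1.27) and the cyclin-dependent kinase inhibitor Cdkn1a (1.16). Mdm2 (0.83) and the pro-apoptotic Bcl2l11 (0.45) were the others, and Bax (0.04) and Bcl2 (−0.30) did not pass. Of 24 growth and angiogenic factors 9 rose: the activin subunit Inhba by 2.20 (SE 0.23, adjusted p = 0.00019), the matrix protein Ccn1 by 1.92, Hbegf by 1.77, Csf3 by 1.42, Csf1 by 1.36, Angptl4 by 1.26, Ccn2 by 1.14, Gdnf by 0.64 and Tgfb1 by 0.55. Csf3, the neutrophil growth factor, was at 0.06 and −0.01 at 2 h, 2.88 and 1.74 at 4 h and 1.06 and 1.33 at 6 h against −0.11 and −0.38 at 0 h. Vegfa (0.19) and Bdnf (0.28) did not pass. Without 0 h replicate 2, 2 growth arrest genes and 3 growth factors passed.

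Stress pathways were selective. Of 14 heat shock proteins and chaperones 2 rose, the co-chaperone Dnajb1 (0.93) and the haem-degrading enzyme Hmox1, while the mitochondrial Hspd1 (−0.09), Hsp90aa1 (−0.34) and Hspb1 (0.47) did not pass. Of 15 genes of the integrated stress and unfolded protein response, the translation regulators Ppp1r15a (1.68, SE 0.19, adjusted p = 0.00041) and Atf4 (0.84) rose and Asns fell by 0.60. Ddit3 (0.16) and the endoplasmic reticulum chaperone Hspa5 (−0.01) did not pass. Of 21 hypoxia and glycolysis genes 4 rose and 1 fell. Hexokinase 2, Hk2, rose by 2.03 (SE 0.34, adjusted p = 0.005), the lactate exporter Slc16a3 by 1.21, the vasodilator peptide gene Adm by 1.17 and the glycolysis regulator Pfkfb3 by 1.12, and Pfkp fell by 0.56. None of these 4 rises passed when either 0 h array was left out. Enzymes further down glycolysis, such as Gapdh (−0.11), Pkm (−0.27) and Ldha (0.31), did not pass.

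Of 14 metallothionein, iron and zinc handling genes Mt1 and Hmox1 rose and 0 fell. Hmox1 was the single gene that passed between 6 h and 2 h (1 of 14324, 0.00698%, and 0 lower, with limma). At an unadjusted p under 0.05 there were 339 higher and 717 lower. Hmox1 was at −0.81 and −0.84 at 0 h, −0.62 and −0.44 at 2 h, 1.28 and 0.72 at 4 h and 0.97 and 1.07 at 6 h, so that the 2 h pair lay near the baseline and the 4 later arrays well above it. The difference of 6 h from 2 h was 1.55 (adjusted p = 0.01) and the mean early change 1.32 (SE 0.14, adjusted p = 0.00022). This count rose to 413 higher and 950 lower without 6 h replicate 2, when the time is represented by the array that stands apart, and was 2 and 1 without 6 h replicate 1. Hmox1 itself did not pass between 6 h and 2 h when either 2 h array was left out, with array weights, or in the fit of the 0 to 6 h arrays only.

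**Figure D2:**
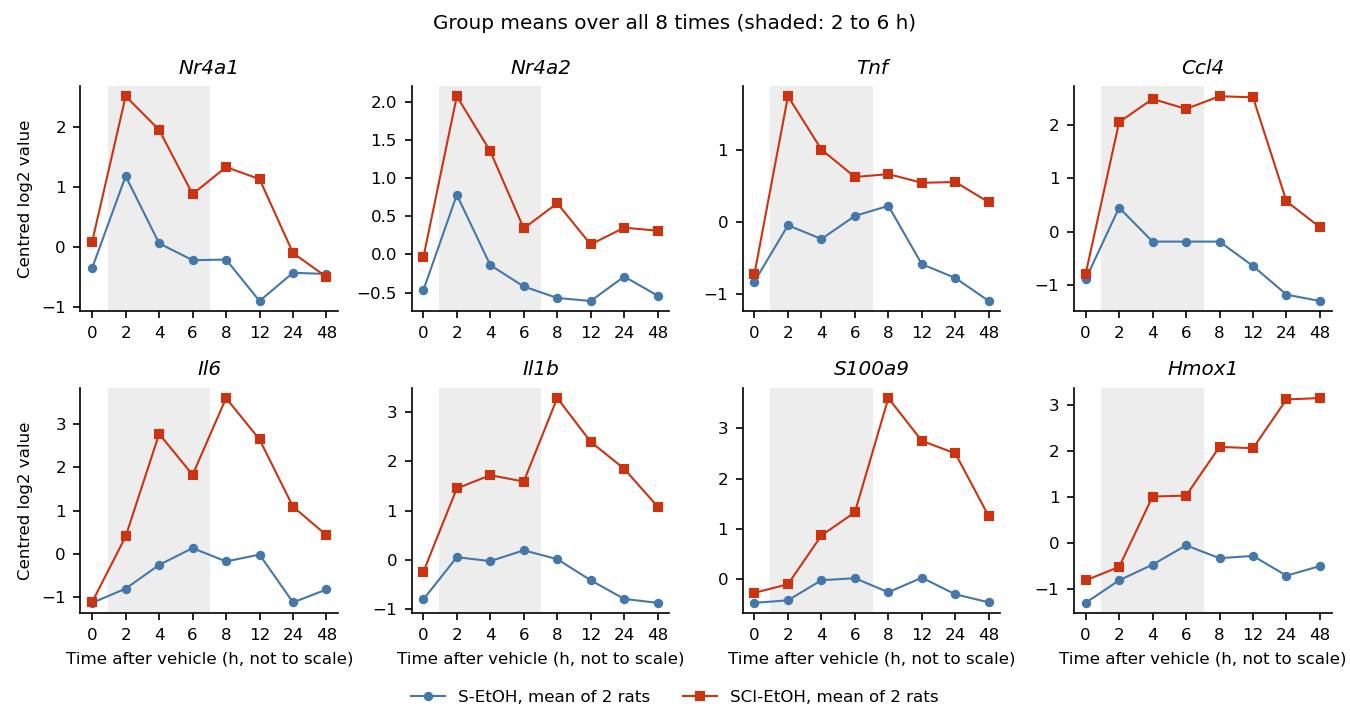
Means of 2 rats in SCI-EtOH and S-EtOH (y axis, centred log2 values) against hours after the vehicle from 0 to 48 h (x axis) for 8 genes. Injured Nr4a1 has its highest mean, 2.51, at 2 h, S100a9 reaches 3.60 at 8 h, and Hmox1 reaches 3.14 at 48 h.

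Of the genes used as signs of reactive astrocytes 8 of 19 rose and 0 fell: Emp1, Timp1, Osmr, Tm4sf1 (1.61), Ptx3 (1.53), Sphk1 (1.03), Cd44 (0.98) and Nes (0.77), several of which other cells also make. The astrocyte filament gene Gfap did not pass (−0.07, adjusted p = 0.74). Of 17 interferon response genes Oasl (1.55), Ifih1 (1.26), Irf1 (1.12) and Gbp2 (1.02) rose, and Isg15 (0.45), Mx1 (0.06) and Irf7 (0.13) did not pass. Of 9 complement genes Cd55, a brake on complement at the cell surface, rose by 1.83 (SE 0.47, adjusted p = 0.035). Of 13 core clock genes and outputs 1 rose, Bhlhe40 (adjusted p = 0.001), and 1 fell, Dbp by 0.86 (1.88% and 5.7% of all genes). Of 12 genes of cholesterol synthesis 0 passed in limma, and Dhcr7, which makes the final step, was at −0.57 (adjusted p = 0.076). Without 0 h replicate 1 the calls left were 3 of the reactive astrocyte genes, 1 of the interferon genes, 0 of the complement genes and 1 of the clock genes.

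Many of the named falls were of neuronal genes. Of the neuron structural markers 10 of 13 fell and 0 rose, with a list median of −0.88 against −0.053 for all genes. Nefm, the medium neurofilament chain of large axons, was at 0.20 and 0.14 at 0 h, −0.88 and −0.29 at 2 h, −1.17 and −2.39 at 4 h and −1.38 and −0.82 at 6 h. It fell by 1.33 (SE 0.31, adjusted p = 0.026). Nefl was at 0.27 and 0.28 at 0 h and between −0.43 and −1.93 afterwards, a change of −1.24 (SE 0.31, adjusted p = 0.032), and Nefh fell by 1.04 (SE 0.28, adjusted p = 0.043). Stmn2 (−1.19), Ina (−1.02), Uchl1 (−0.94), Tubb3 (−0.88), Stmn3 (−0.67), Elavl4 (−0.66) and Rbfox3 (−0.44) fell too. Map2 (−0.81, adjusted p = 0.057), Thy1 (−0.79, adjusted p = 0.06) and Gap43 (−0.22, adjusted p = 0.57) did not pass. The medians of this list on single arrays were 0.29 and 0.29 at 0 h and from −1.12 to −0.24 afterwards, with no overlap. In this tissue RNA, fewer neurons and less of each transcript per neuron cannot be told apart. None of the 10 passed without either 0 h array, and 12 did without 6 h replicate 2.

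**Figure D3:**
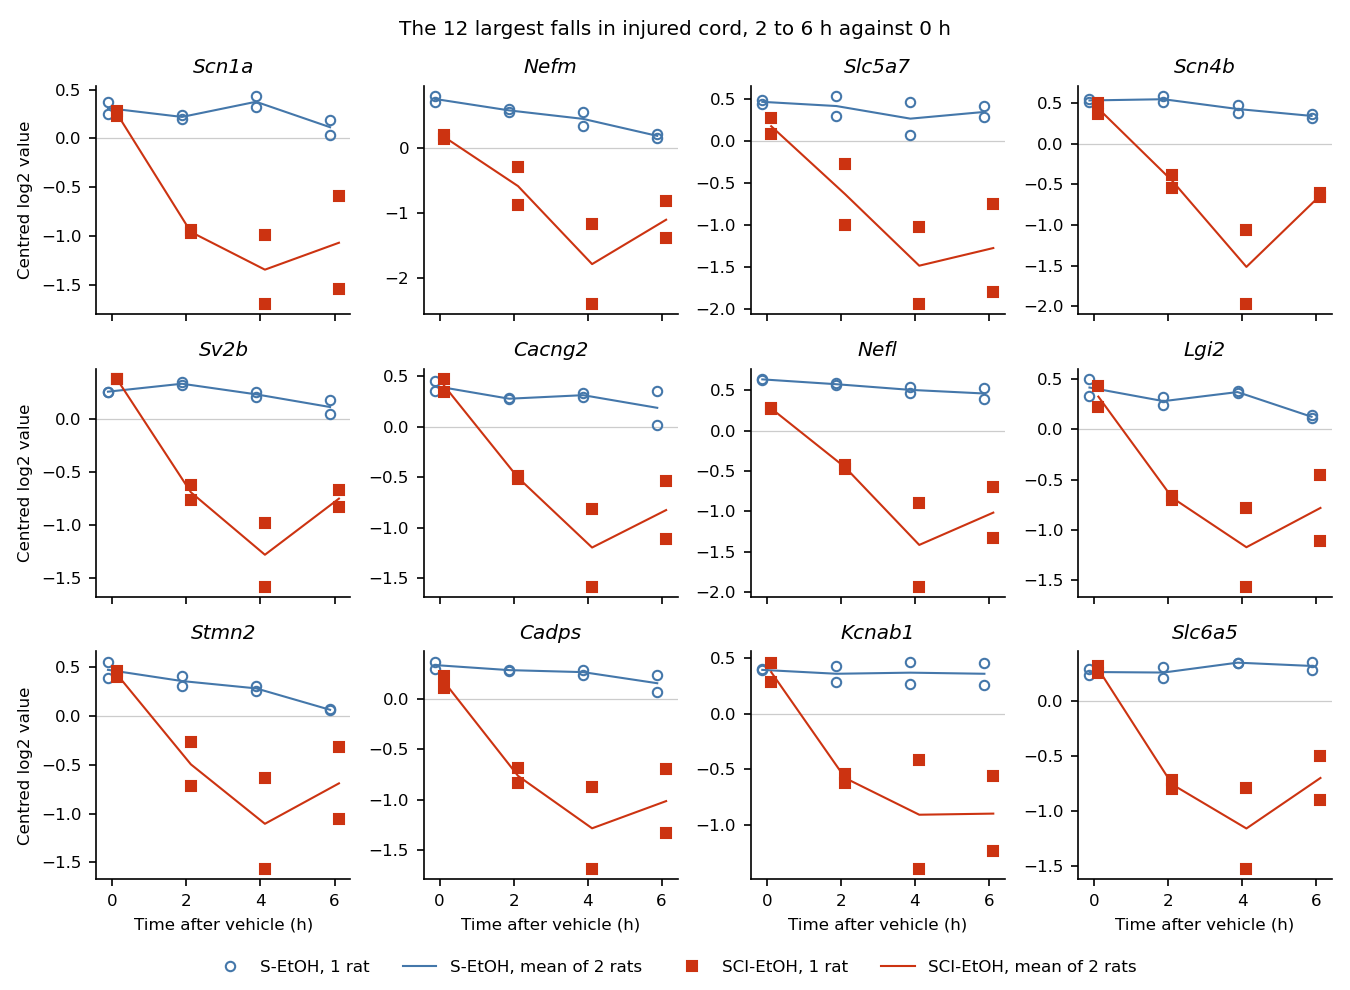
The 12 largest falls, ordered by size: centred log2 values (y axis, own scale in each panel) against hours after the vehicle (x axis), with 1 point per rat and lines through the means of 2 rats, for SCI-EtOH (filled squares) and S-EtOH (open circles). The genes were chosen to have all 6 injured arrays at 2 to 6 h below both injured 0 h arrays. In Scn1a the injured means drop by 1.21 at 2 h while the sham values stay between 0.04 and 0.43.

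A sodium channel gene had the largest fall. Scn1a, the sodium channel Nav1.1 of fast-firing neurons, was at 0.23 and 0.28 at 0 h, −0.97 and −0.94 at 2 h, −0.99 and −1.69 at 4 h and −1.54 and −0.59 at 6 h. It fell by 1.37 (SE 0.23, adjusted p = 0.0049). The sodium channel subunit Scn4b was at 0.50 and 0.36 at 0 h and between −0.38 and −1.97 afterwards and fell by 1.30 (SE 0.22, adjusted p = 0.0051). In the list of voltage-gated sodium, potassium and calcium channels 6 of 21 genes fell and 0 rose. The others that fell were Scn8a (−0.96), Kcnj3 (−0.90), Kcna2 (−0.80) and Kcnd2 (−0.75). Kcnj3 and the other Kcnj genes of this list encode inward-rectifying potassium channels, which are not voltage-gated. The potassium channel subunit Kcnab1 (−1.17, SE 0.25, adjusted p = 0.016) and Lgi2 (−1.20, SE 0.21, adjusted p = 0.0057) were among the 12 largest falls. Without 0 h replicate 2, 0 of the 6 channel genes passed, and without 6 h replicate 2, 13 did.

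Genes of synaptic transmission fell as well. Of 21 synaptic vesicle release genes 8 fell and 0 rose. Sv2b, a vesicle glycoprotein, was at 0.38 and 0.38 at 0 h, −0.62 and −0.76 at 2 h, −0.98 and −1.58 at 4 h and −0.83 and −0.67 at 6 h, a fall of 1.29 (SE 0.17, adjusted p = 0.001). Sv2c (−1.11), Syt2 (−0.99), Nsf (−0.97), Vamp1 (−0.87), Syp (−0.86), Syn2 (−0.81) and Syn1 (−0.69) fell as well, and so did the vesicle priming gene Cadps (−1.19, SE 0.27, adjusted p = 0.024). Snap25 (−0.68, adjusted p = 0.08) and Syt1 (−0.54, adjusted p = 0.16) did not pass. In this list 1 gene was lower without either 0 h array.

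Genes of inhibitory transmission in the cord also fell. Of 18 genes of glycine and GABA transmission 8 fell and 0 rose, and 16 had all 6 early arrays below the baseline pair (23.5% of all genes). Slc6a5, the transporter that loads glycinergic terminals, was at 0.26 and 0.32 at 0 h, −0.72 and −0.80 at 2 h, −0.79 and −1.53 at 4 h and −0.90 and −0.50 at 6 h. It fell by 1.16 (SE 0.24, adjusted p = 0.015). The glycine receptor subunits Glra1 (−1.02) and Glrb (−0.95), the GABA receptor subunits Gabra5 (−0.86), Gabra2 (−0.77), Gabrb2 (−0.72) and Gabbr2 (−0.66) and the vesicular transporter Slc32a1 (−0.78) fell. The GABA-synthesizing enzymes Gad1 (−0.54, adjusted p = 0.13) and Gad2 (−0.45, adjusted p = 0.15) did not pass. None of the 8 passed without either 0 h array, and 14 genes of the list did without 6 h replicate 2.

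Of 18 glutamate receptors and transporters 1 fell, the AMPA receptor subunit Gria4 (−0.73), and 0 rose. This count of falls is near the share of all genes that fell, 5.7%. In 11 of them all early arrays lay below the baseline pair, against 23.5% of all genes, and the list median was −0.48. The AMPA receptor partner Cacng2, which also counted among the 12 largest falls, went from 0.47 and 0.34 at 0 h to between −0.49 and −1.58, a fall of 1.25 (SE 0.19, adjusted p = 0.0034). Of 9 cholinergic motor neuron markers the choline transporter Slc5a7 (−1.31, SE 0.37, adjusted p = 0.049), the vesicular acetylcholine transporter Slc18a3 (−1.10, SE 0.19, adjusted p = 0.0068) and Calca (−0.68) fell. Isl1 (−0.11) and Isl2 (0.16) did not pass. Of 12 genes of ion and water homeostasis the neuronal potassium-chloride exporter Slc12a5 (−0.82, SE 0.22, adjusted p = 0.044) and the sodium pump subunit Atp1b1 (−0.67, SE 0.11, adjusted p = 0.0042) fell. None of the falls in these 3 lists passed without either 0 h array, and without 6 h replicate 2 there were 12 glutamate, 4 motor neuron and 7 ion homeostasis genes lower.

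Markers of the other cells of the cord were examined in the same way. Of 12 oligodendrocyte and myelin markers 0 passed in either direction in limma, also at an unadjusted p under 0.05 (0 higher and 0 lower, against 842 higher and 2892 lower of all 14324 genes), with a median of −0.07 and Mbp at 0.06 (SE 0.15). The medians of the myelin list on single arrays were 0.03 and 0.11 at 0 h and from −0.22 to 0.19 afterwards, so the groups overlapped. Of 11 astrocyte markers Acsbg1 (−0.74) and Fgfr3 (−0.73) fell. In 10 of the 11 all 6 early arrays lay below both 0 h arrays, against 23.5% of all genes, with a list median of −0.58. Without either 0 h array 0 astrocyte markers passed, and 7 did without 6 h replicate 2. Of 12 homeostatic microglia markers 1 fell, Sall1 by 0.72 (5.7% of all genes fell). P2ry12 did not pass (−0.20, adjusted p = 0.68), with 0.39 and 0.40 at 0 h, 0.28 to 0.60 at 2 and 4 h, and −0.86 and 0.27 at 6 h. Of 6 oligodendrocyte precursor markers, 12 endothelial markers, 10 pericyte and smooth muscle markers and 5 ependymal markers 0 passed in limma, with medians of −0.30, 0.02, 0.08 and 0.18. Of 6 Schwann cell markers Egr2, which is also in the list of early growth response factors, rose (1.15).

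Markers of blood cells were followed as cells that could enter the tissue. Of 19 neutrophil markers 1 rose, Hcar2 (1.17, SE 0.30, adjusted p = 0.036), which other myeloid cells also express, and 9 were higher and 0 lower at an unadjusted p under 0.05 (842 and 2892 of all 14324 genes). Hcar2 did not pass without either 0 h array, and 5 members passed without 6 h replicate 2. The alarmin S100a9, abundant in neutrophils, was at −0.30 and −0.24 at 0 h, 0.07 and −0.26 at 2 h, 1.39 and 0.35 at 4 h and 1.59 and 1.07 at 6 h. Its 2 h pair overlapped the baseline and its 4 and 6 h arrays lay above it. Its mean early change was 0.97 (adjusted p = 0.054), with 1.60 at 6 h alone (adjusted p = 0.028). The medians of the neutrophil list on single arrays were −0.20 and −0.19 at 0 h, −0.07 and 0.07 at 2 h, 0.14 and 0.52 at 4 h and 0.36 and 0.55 at 6 h. Of 12 monocyte and macrophage markers Cd14 rose and the others did not pass, and of 11 lymphocyte markers, 7 erythrocyte and platelet markers and 10 skeletal muscle markers 0 passed in limma. The medians of these 4 lists were 0.26, 0.24, 0.46 and 0.20. The defining red cell enzyme Alas2, at 1.26 and 1.22 at 0 h and from 0.51 to 2.73 afterwards, overlapped between the groups. The part of entering cells in the rises of chemokines and cytokines was not tested.

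**Figure D4:**
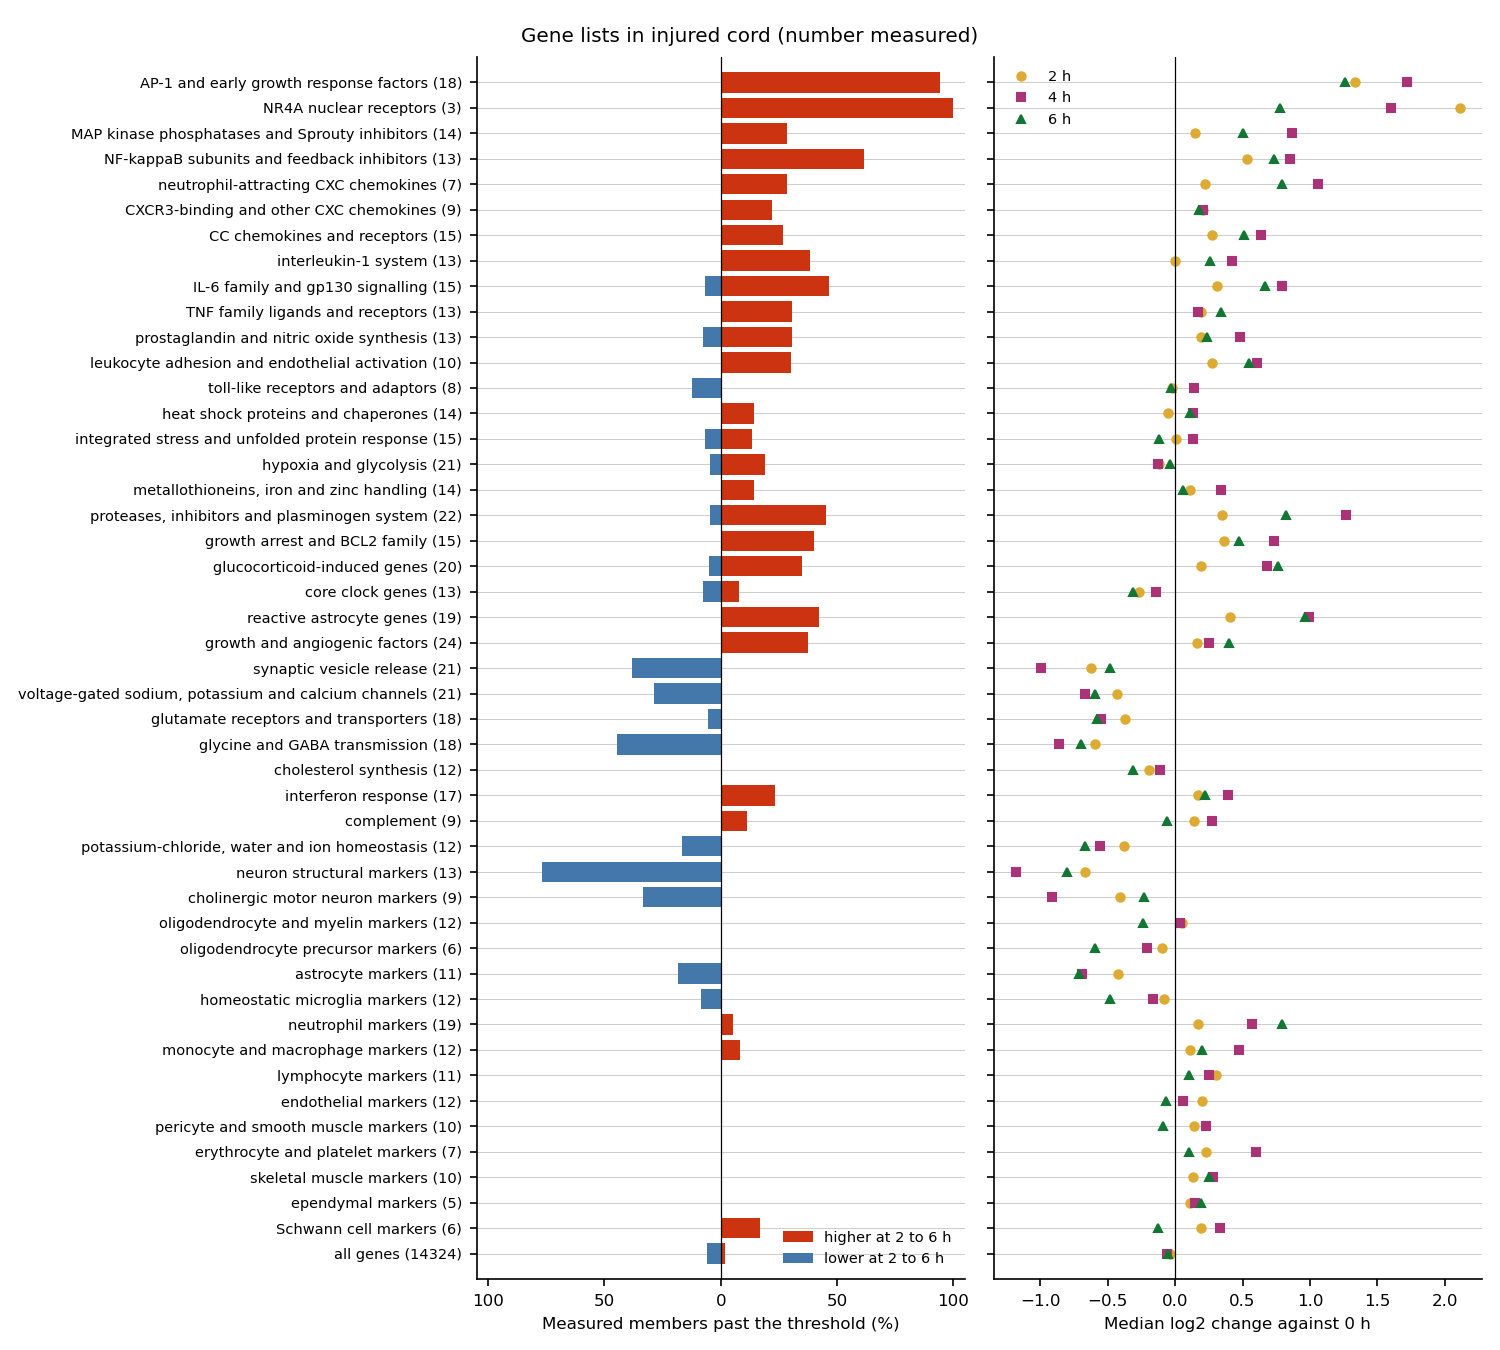
The 46 gene lists and all genes tested, with the number of measured genes in parentheses: left, the share of members past the threshold at 2 to 6 h against 0 h (x axis, percent), higher to the right and lower to the left; right, the median log2 change of each list at 2, 4 and 6 h (x axis). The NR4A and AP-1 lists reach furthest right and the neuron structural markers furthest left, and the NR4A median runs from 2.11 at 2 h over 1.60 at 4 h to 0.78 at 6 h.

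Part of the same genes also changed in sham-operated cord. Effects of surgery, anaesthesia, the ethanol vehicle and time cannot be told apart in that comparison. In S-EtOH 41 genes were higher (0.286%) and 97 lower (0.677%) at 2 to 6 h than at 0 h. Of the 269 genes that rose in injured cord, 256 had a positive change in sham cord and 21 of them passed there. Over all genes tested the median sham change was −0.017. Of the 817 genes that fell in injured cord, 23 passed as falls in sham cord. The test of the difference, the change in injured cord minus that in sham cord, called 53 genes higher (0.37%) and 146 lower (1.02%). These 53 were all among the rises in injured cord and 142 of the 146 among its falls. Both tests use the same injured arrays, so this overlap is in part built in. Within S-EtOH, replicate 1 at 4 h lay near the 0 h pair for many inflammatory genes, such as Ptgs2 at −1.64 against 0.21 in replicate 2. Without either injured or sham 0 h array the difference was called for 3 to 7 genes higher and 3 to 5 lower.

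Atf3 was among the genes whose rise exceeded the sham change. In S-EtOH it was at −1.39 and −1.33 at 0 h, −0.49 and −0.40 at 2 h, −1.08 and −0.48 at 4 h and −0.69 and −0.44 at 6 h, so that every sham array lay below every early injured array. The excess was 2.56 (SE 0.24, adjusted p = 1.1e-05). Cxcl2 exceeded its sham change by 2.71 (SE 0.59, adjusted p = 0.03), Dusp5 by 2.52 (SE 0.41, adjusted p = 0.0073), Cxcl1 by 2.41 (SE 0.48, adjusted p = 0.019), Ccl4 by 2.17 (SE 0.33, adjusted p = 0.0045) and Plaur by 2.11 (SE 0.37, adjusted p = 0.014). Csrnp1, a nuclear protein gene induced by axin, exceeded it by 1.90 (SE 0.41, adjusted p = 0.028), and Anxa1, a phospholipid-binding protein with anti-inflammatory action, by 1.83 (SE 0.41, adjusted p = 0.037). Among the AP-1 and early growth response factors 10 of 18 exceeded the sham change and 0 fell below it (0.37% and 1.02% of all genes). They included Fos (1.32, adjusted p = 0.043) and Fosl1 (1.38, adjusted p = 0.019). The calls of this test depended on single 0 h arrays, as given above. Tnf exceeded its sham change by 1.09 (SE 0.22, adjusted p = 0.019). Egr1 did not pass (1.45, SE 0.45, adjusted p = 0.12).

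Other large rises were not separated from the sham change by this test. Above the sham change it called 0 of 13 interleukin-1 system genes, 0 of 15 IL-6 family genes and 0 of 17 interferon response genes. Of the NF-kappaB list 1 of 13 passed, and of the NR4A receptors 1 of 3 (0.37% of all genes). Ccl2 in S-EtOH went from −3.49 and −3.22 at 0 h to −0.91 and −0.59 at 2 h, −2.03 and −0.07 at 4 h and −0.56 and −0.16 at 6 h, a rise of 2.64 (SE 0.39, adjusted p = 0.02), and the excess in injured cord was 1.12 (SE 0.50, adjusted p = 0.31). For Tfpi2 the excess was 2.26 (SE 0.66, adjusted p = 0.096), for Ptgs2 1.65 (SE 0.48, adjusted p = 0.096), for Il6 1.96 (SE 0.70, adjusted p = 0.17), for Timp1 0.61 (SE 0.53, adjusted p = 0.65) and for Hmox1 0.46 (SE 0.33, adjusted p = 0.57). Mt1, a zinc-binding metallothionein, rose by 1.60 (SE 0.24, adjusted p = 0.003) in injured cord and by 1.61 (SE 0.25, adjusted p = 0.02) in sham cord, with a difference of −0.02 (SE 0.37, adjusted p = 0.99). Of 20 glucocorticoid-induced genes 7 were higher and 1 lower in injured cord (1 higher without either 0 h array), 1 was higher and 0 lower in sham cord, and 0 passed the test of the difference in limma. The list median was 0.64 in injured cord and 0.58 in sham cord, and that of the difference was −0.28. They included Errfi1, an inhibitor of EGF receptors, which rose by 1.58 (SE 0.25, adjusted p = 0.0038) against 1.52 (SE 0.34, adjusted p = 0.055) in sham cord. Tsc22d3, a direct target of the glucocorticoid receptor, fell by 0.85 (SE 0.17, adjusted p = 0.015) in injured cord.

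**Figure D5:**
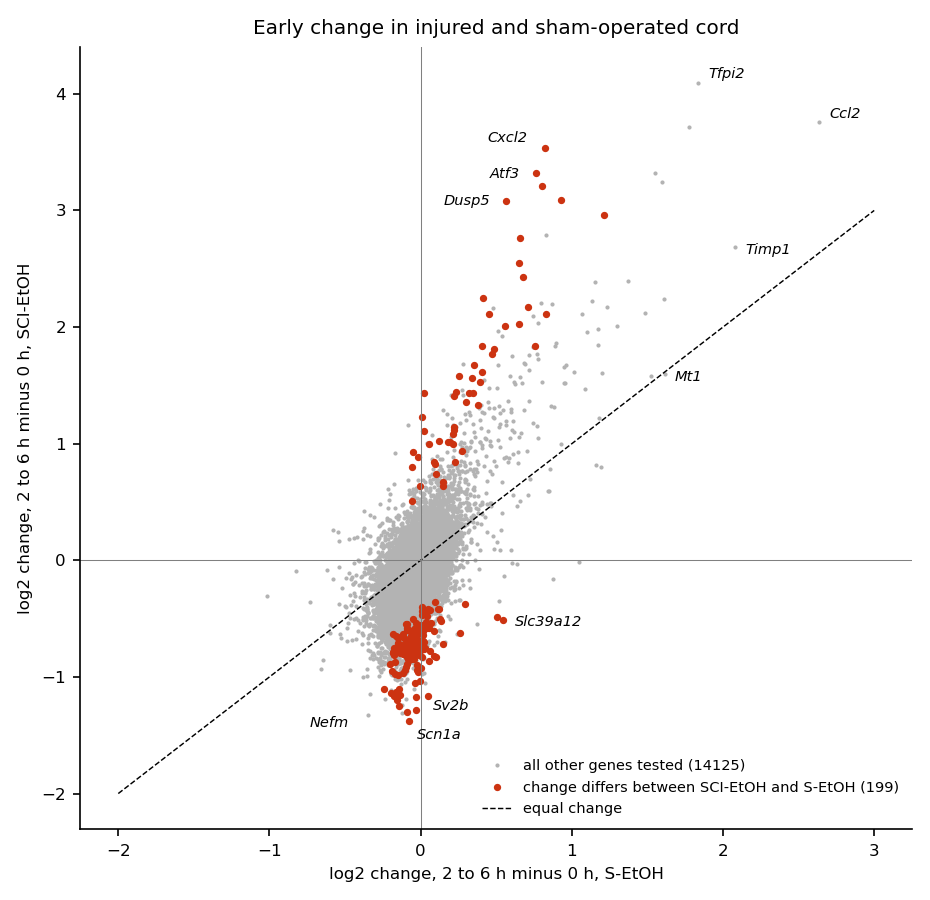
Log2 change from 0 h to 2 to 6 h in S-EtOH (x axis) and SCI-EtOH (y axis) for all 14324 genes, 1 point per gene, with the 199 genes whose change differed between the groups in red and the line of equal change dashed. Red points lie far above the line (Cxcl2, Atf3, Dusp5) or form a cloud near 0 on the x axis and below −0.3 on the y axis, while Mt1 lies on the line and Ccl2 and Timp1 lie at sham changes of 2.64 and 2.08.

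Several neuronal genes fell further in injured than in sham cord, but most members of the neuronal lists did not pass this test. It called lower 0 of 13 neuron structural markers, 4 of 21 channel genes and 2 of 21 vesicle release genes (1.02% of all genes). Of the glycine and GABA genes 1 of 18 was lower, and of the glutamate genes 0 of 18. The median differences of these 5 lists were −0.75, −0.48, −0.55, −0.55 and −0.37. Scn1a in S-EtOH was at 0.25 and 0.37 at 0 h and between 0.04 and 0.43 afterwards, and the difference between the changes was −1.30 (SE 0.25, adjusted p = 0.019). Sv2b fell further than in sham by 1.26 (SE 0.18, adjusted p = 0.0033), Slc6a5 by 1.21 (SE 0.27, adjusted p = 0.034), Scn4b by 1.21 (SE 0.24, adjusted p = 0.019), Kcnab1 by 1.15 (SE 0.28, adjusted p = 0.045), Cacng2 by 1.11 (SE 0.22, adjusted p = 0.019) and Lgi2 by 1.04 (SE 0.22, adjusted p = 0.028). The neurofilaments did not pass here, with Nefm at −0.98 (SE 0.35, adjusted p = 0.17), and Nefm fell in sham cord as well, by 0.35 (SE 0.064, adjusted p = 0.036). Slc39a12, a zinc transporter, differed by −1.05 (SE 0.24, adjusted p = 0.037) in another way. Its change in injured cord was −0.51 (adjusted p = 0.12), from 0.02 and 0.29 to between −0.51 and −0.09, while in sham cord it rose by 0.54 (SE 0.11, adjusted p = 0.047).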

How the data were processed

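RNA from 5 mm of spinal cord was hybridized to Rat Gene 1.0 ST arrays, 1 array per rat. The authors ran RMA in GeneSpring GX, then scaled each chip and each gene, and the deposited values are log2, centred for every probe set. The centring reference and the genome build are not given in the sources used here. No background accompanies the values, so no floor or filter on dim probe sets was possible. Groups and times came from the labels.

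Of 27342 probe sets, 15097 had 1 gene symbol, 323 several and 11922 none in the platform annotation. Symbols were updated by gene ID (15067 matched) and probe sets averaged to 14324 genes. The 16 SCI-EtOH arrays were fitted with a mean for each time in limma 3.58.1 (R 4.3.3), because injured pairs spread more than sham pairs. The difference from sham was fitted on the SCI-EtOH and S-EtOH arrays together. P-values measure the spread between rats. The 46 lists hold 611 measured entries. The members and lists were chosen with earlier results of these data known. Genes were named by a rule: the 12 largest early rises and falls with no overlap of arrays, 8 each way for 6 h against 2 h and for injured minus sham, and 4 per list. Other genes are given for their role in a list. Promoters were those of RefSeq (GRCr8). Alternatives are given in the closing section.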

Additional observations from a re-analysis of the deposited data

Results flagged for a closer look

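The early change of 16 genes differed between injured and sham-operated cord by a test of the difference itself in limma. In log2 units the change in SCI-EtOH exceeded that in S-EtOH by 2.71 for Cxcl2, 2.56 for Atf3, 2.52 for Dusp5, 2.41 for Cxcl1, 2.17 for Ccl4, 2.11 for Plaur, 1.90 for Csrnp1 and 1.83 for Anxa1. It was below it, with differences of −1.30 for Scn1a, −1.26 for Sv2b, −1.21 for Slc6a5, −1.21 for Scn4b, −1.15 for Kcnab1, −1.11 for Cacng2, −1.05 for Slc39a12 and −1.04 for Lgi2. These are the 8 largest differences in each direction among the 53 and 146 genes that passed. Of the 16, 4 passed without SCI-EtOH 0 h replicate 1, 2 without SCI-EtOH 0 h replicate 2, 3 without S-EtOH 0 h replicate 1 and 2 without S-EtOH 0 h replicate 2, with no change of direction. Slc39a12 is the one of the 16 whose change in injured cord alone did not pass (−0.51, adjusted p = 0.12).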

How the results depend on the processing

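Counts of called genes moved strongly with the processing, while no named gene called early turned direction. With all 60 arrays in the fit, 1196 genes were higher and 3102 lower early, 264 and 522 at 2 h, 910 and 2586 at 4 h, 1464 and 3149 at 6 h, and 110 and 155 between 6 h and 2 h. With the arrays of 0 to 6 h only, 407 were lower early, 4 at 2 h, 448 at 4 h, 113 at 6 h, 0 higher and 1 lower between 6 h and 2 h, and 44 lower in injured minus sham. Quantile normalization gave 766 and 2198 early, 250 and 558 at 2 h, 812 and 2033 at 4 h, 545 and 1464 at 6 h, 23 and 29 between 6 h and 2 h, and 327 lower against sham. Array weights gave 781 and 2808 early, 390 and 1140 at 2 h, 736 and 2370 at 4 h, 37 and 1 at 6 h, 0 higher between 6 h and 2 h, and 176 and 952 against sham. With 2 and 4 h alone 462 were lower early. Over all probe sets 32 were higher and 82 lower against sham. The cause of these shifts was not tested. Leaving out 1 array at a time gave 77 to 854 higher and 6 to 2651 lower early, 16 to 76 and 0 to 21 at 2 h, 120 to 431 and 37 to 1347 at 4 h, 41 to 1567 and 1 to 2922 at 6 h, 0 to 413 and 0 to 950 between 6 h and 2 h, and 3 to 255 and 3 to 1074 against sham. Alas2, not called at 0.59, was at −1.04 (adjusted p = 0.021) after quantile normalization. Of the 107 named genes called early, 40 and 43 were still called without one of the 0 h arrays.

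The replicate numbers showed no clear pairing in the SCI-EtOH arrays of 0 to 6 h. The difference of replicate 1 from replicate 2 correlated between −0.162 and 0.149 from time to time. Low correlations cannot exclude a batch shared by some arrays. With the replicate block 253 genes were higher and 614 lower early, 59 and 4 at 2 h, 292 and 543 at 4 h, 174 and 221 at 6 h, 2 and 0 between 6 h and 2 h, and 43 and 104 against sham.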

Other observations

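Values at the later times of SCI-EtOH are given here as means of 2 rats with no test. Nr4a1 was at 0.09 at 0 h, 1.33 at 8 h, 1.13 at 12 h, −0.10 at 24 h and −0.50 at 48 h. Ccl4 was at 2.55 at 8 h and 2.53 at 12 h and then at 0.57 at 24 h and 0.08 at 48 h. Il1b was at 3.29 and Il6 at 3.61 at 8 h. S100a9 was at 3.60 at 8 h, 2.50 at 24 h and 1.25 at 48 h. Hmox1 was at 2.08 at 8 h, 3.11 at 24 h and 3.14 at 48 h, its highest means. Of the neuronal genes, Nefm was at −2.77 at 8 h, −3.69 at 24 h and −3.83 at 48 h, and Scn1a at −2.09, −3.17 and −3.14. Slc12a5 was at −1.30 at 8 h and −2.60 at 48 h.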
